A study of Caenorhabditis elegans with 4 samples.

Results

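The miR-44 family of *Caenorhabditis elegans* comprises the miRNAs cut from 4 hairpins, cel-miR-44, cel-miR-45, cel-miR-61 and cel-miR-247. Its members were taken by name from a table of mature miRNAs, both arms of a hairpin where both were listed. This gave 7 of the 205 listed miRNAs, from 4 of the 132 listed hairpins. miR-44, miR-45 and miR-61 were each listed with a 3p and a 5p arm, the strands from the 3′ and 5′ sides of the hairpin, and miR-247 was listed with its 3p arm only.

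Small RNA was sequenced from whole wild-type N2 Bristol animals, the standard laboratory strain, at the last larval (L4) stage. Heat shocked animals (HS, 2 libraries) were shifted to 35°C, for 6 h by the treatment protocol and for 4 h by the sample characteristics, and control animals (CTRL, 2 libraries) stayed at 20°C. All animals were fed OP50 bacteria. The level of each miRNA described here is the authors' mean normalized count, a mean taken over the 2 HS and the 2 CTRL libraries together. A miRNA that differs between HS and CTRL therefore has a level in between, and no value below separates HS from CTRL or carries a replicate error. The fold changes of the authors' own comparison were not used, and whether any member differed between HS and CTRL was not tested here.

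A miRNA guides Argonaute proteins to mRNAs mainly through its seed, the first bases after its 5′ end, and hairpins whose mature strands share a seed are grouped as a family. The members of the miR-44 family share their seed with miR-279 of *Drosophila melanogaster*. In *C. elegans*, miR-61 is known as a target of LIN-12/Notch signalling in the vulval precursor cells, where it represses *vav-1*, and the family is known to promote the sperm fate in the hermaphrodite germ line. When a hairpin is diced, one strand of the duplex is usually retained in Argonaute as the guide and the other, the passenger, is mostly lost. The miR-44 and miR-45 hairpins are annotated with the same mature 3p sequence, so a read of that strand does not show which of these hairpins it came from.

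The seed is the feature that makes these hairpins a family, and it is shown for the member whose seed was printed with the study and for the neighbour of that member. The capitals are bases 2 to 7 of each mature strand, 5′ to 3′.
miR-247-3p: GACUAG
miR-797-5p: AUCACA
The seed of miR-247-3p lies on the 3p strand of a chromosome X hairpin, and that of miR-797-5p, a member of the miR-2 family, lies on the 5p strand of the next hairpin along.

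Nearly all of the signal of the family came from 3 of its strands, and its place among all miRNA families was not determined. Its 7 miRNAs made up 3.41% of the listed miRNAs and held 13.5% of the table's summed mean normalized counts. With miR-45-3p left out of the sums, that share was 7.91%. This value applies if each read of the sequence annotated for both miR-44-3p and miR-45-3p was counted in full for both. If such reads were divided between them, the 13.5% already counts each read once. As listed, the 3p arms of miR-44 and miR-45 together held 90.3% of the level of the family, miR-61-3p held 9.46% and miR-247-3p held 0.0801%. All 3 listed 5p arms together held 0.0278% of the level of the table. The mature forms of the family are annotated at 21 or 22 bases, so levels were compared without a correction for length, but ligation and amplification favour some small RNAs over others, and the size of that effect was not measured here.

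Among the guide strands, miR-44-3p and miR-45-3p stood together near the top of the table. miR-44-3p had a mean normalized count of 604592 and was the 7th most abundant of the 205 listed miRNAs. miR-45-3p followed directly, at 599219 mean normalized counts and rank 8. The level of miR-44-3p exceeded that of miR-45-3p by 0.897%. Among the 19 ratios between neighbouring ranks of the 20 most abundant miRNAs, 1 was smaller than this ratio of 1.01, and their median was 1.06. With the same mature sequence annotated for both, the similar levels cannot be read as similar output of the 2 hairpins. The way reads that match several miRNAs were divided is not given in the sources used here. The levels and ranks of miR-44-3p and miR-45-3p, and the ratios taken from them below, depend on that division. The miRNA next above the pair was miR-90-3p, at 624322 mean normalized counts, and the one next below was miR-228-5p, at 582252.

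miR-61-3p was the third strong guide of the family. Its level was 126108 mean normalized counts, rank 19 of 205, between miR-238-3p at 132007 and miR-52-5p at 114362. miR-44-3p was 4.79-fold and miR-45-3p 4.75-fold above it.

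miR-247-3p stood far below the other guides. Its level was 1068 mean normalized counts, rank 114 of 205, which placed it under the table's median of 1512. miR-61-3p was 118-fold above it, and the highest and lowest 3p arms of the family were 566-fold apart, against 4.79-fold without miR-247-3p. Even the passenger miR-45-5p was 1.15-fold more abundant than miR-247-3p. The closest levels in the table were those of miR-74-5p at 1074 and miR-239a-3p at 1022 mean normalized counts. The 5p form of miR-247, which the annotation places on the same hairpin, was not among the listed miRNAs.

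**Figure D1:**
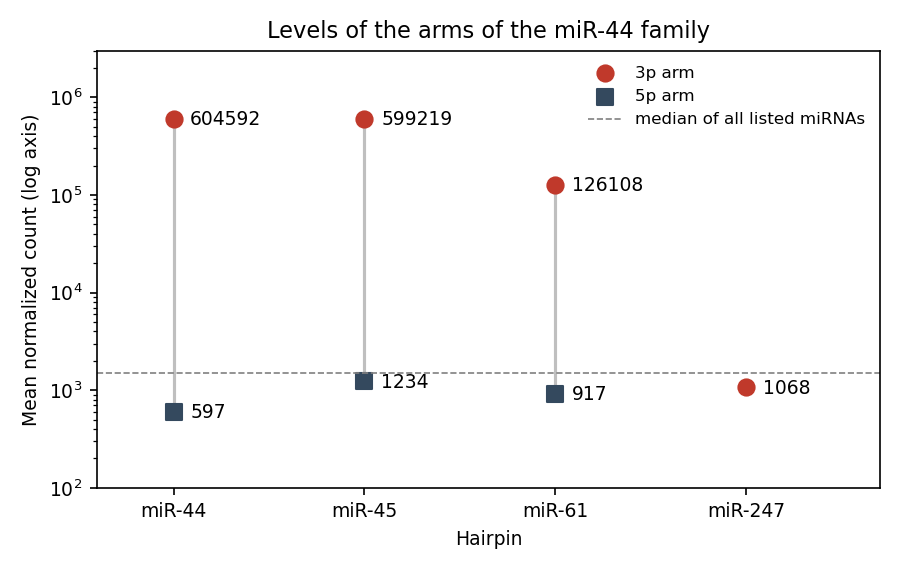
Mean normalized count (log axis) of each listed arm of the 4 hairpins, pooled by the authors over HS and CTRL libraries; circles are 3p arms, squares are 5p arms, grey lines join the arms of a hairpin, and the dashed line is the median of all listed miRNAs. The 3p arms run from 604592 for miR-44 to 1068 for miR-247, while the 5p arms lie between 597 and 1234.

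The passenger strands of the family lay at similar, low levels. miR-45-5p had a mean normalized count of 1234 (rank 111), miR-61-5p of 917 (rank 120) and miR-44-5p of 597 (rank 137). The highest of them was 2.07-fold above the lowest, against 4.79-fold for the 3p arms of the same 3 hairpins as listed. Their order was not that of the 3p arms as listed. miR-45-5p was 2.07-fold above miR-44-5p, while the ratio of their 3p arms was 1.01. These 3p arms are annotated with the same sequence, so that ratio does not show how far the guides of these hairpins differed. miR-61-5p was 1.54-fold above miR-44-5p, although miR-61-3p was below miR-44-3p as listed. Against the 87 listed 5p strands, these passengers lay near the middle. miR-61-5p ranked 44th among them and was itself their median, miR-45-5p ranked 41st and miR-44-5p 52nd. Among the 98 listed 3p strands, by contrast, miR-44-3p, miR-45-3p and miR-61-3p ranked 5th, 6th and 11th, and miR-247-3p ranked 62nd, below their median of 1867 mean normalized counts.

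**Figure D2:**
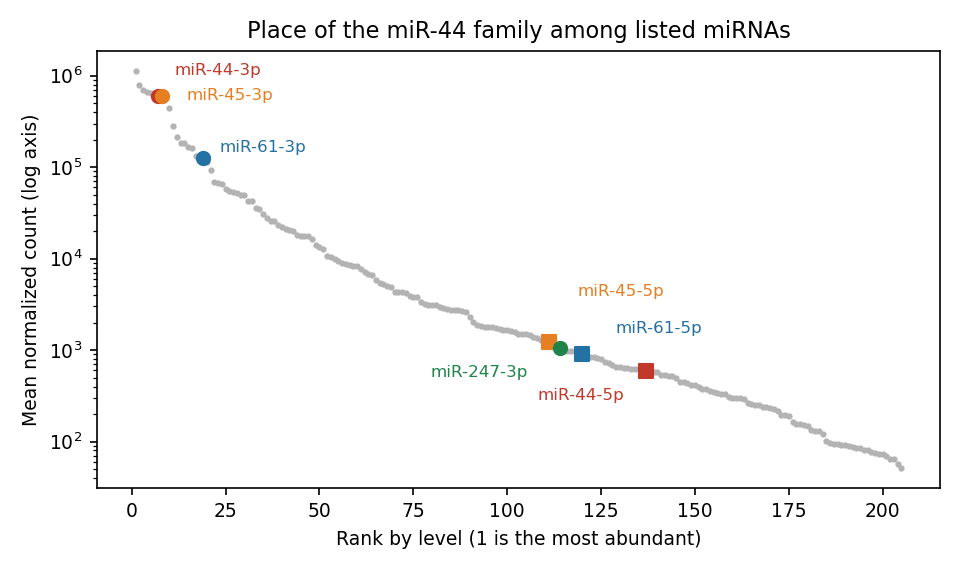
Mean normalized count (log axis) of the 205 listed miRNAs in order of rank; grey points are miRNAs outside the family, coloured circles are 3p and coloured squares 5p arms of the family. The family falls into a high set at ranks 7, 8 and 19 and a set between ranks 111 and 137, with no member in between.

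All hairpins of the family that were listed with both arms were strongly one-sided, and all to the 3p strand. The 3p arm of miR-44 was 1013-fold above its 5p arm, a log2 ratio of 9.98. For miR-45 the 3p arm was 486-fold above the 5p arm (log2 ratio 8.92), and for miR-61 it was 138-fold above (log2 ratio 7.10). The passenger thus held 0.0986% of the summed level of both arms of miR-44, 0.205% for miR-45 and 0.722% for miR-61. For miR-44 and miR-45 these ratios and shares, and the ranks that follow, depend on how reads of their common 3p sequence were divided. Of the 73 hairpins of the table with both arms, 44 had the more abundant arm on the 3p side, and the median fold between arms, whichever was the higher, was 20.8. The log2 ratio of 3p over 5p ranked 4th of 73 for miR-44, 7th for miR-45 and 13th for miR-61. In all, 24 hairpins had arms more than 100-fold apart, and miR-44, miR-45 and miR-61 were among them. The arm ratio of miR-247 could not be given, since its 5p form was not listed.

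**Figure D3:**
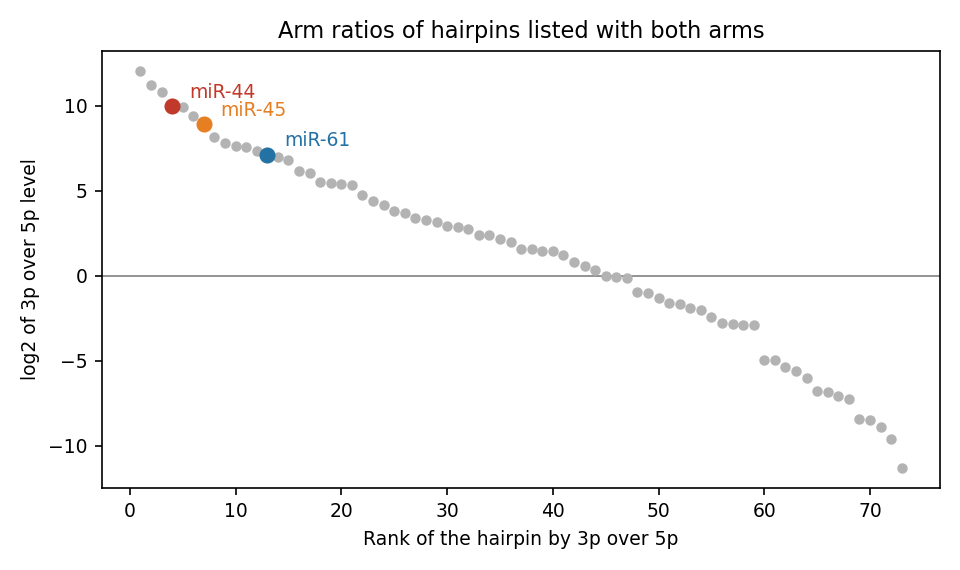
Log2 ratio of the 3p over the 5p mean normalized count of the 73 hairpins listed with both arms, in order of the ratio; coloured points are miR-44, miR-45 and miR-61, grey points the other hairpins. The 3 members, at 9.98, 8.92 and 7.10, lie in the upper part of the 3p side.

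The 4 hairpins lie on 3 chromosomes (WBcel235 assembly). miR-44 is at chromosome II, 11890023 to 11890118, on the plus strand, and miR-45 is on the minus strand of the same chromosome at 11880944 to 11881039. These hairpins are 8983 bp apart and point away from each other. miR-61 is at chromosome V, 11770060 to 11770156, on the minus strand, and miR-247 at chromosome X, 4756971 to 4757068, on the plus strand. None of them overlaps a protein-coding gene. The nearest ones, all annotated on the other strand, are *ZK930.2* at 873 bp from miR-44, *top-2* (a DNA topoisomerase) at 355 bp from miR-45, *sel-11* (an E3 ubiquitin ligase) at 160 bp from miR-61 and *mls-2* (a homeobox transcription factor) at 1735 bp from miR-247. miR-45 overlaps an exon of *ZK930.13*, an annotated non-coding RNA on the opposite strand. The whole of that gene, at 11880952 to 11881033, lies within the miR-45 hairpin.

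As annotated, the hairpins were alike in the place of the 3p form and in the lengths of both forms, but not in the place of the 5p form or the stretch between the arms. Both places are counted from the annotated 5′ end of the hairpin, so they depend on where the annotation puts that end. The 3p form begins 60 bases from the annotated 5′ end of the hairpin in all 4 members, as it does in 46 of the 198 annotated hairpins with 2 mature forms. The 3p forms of miR-44, miR-45 and miR-61 are 21 bases long and that of miR-247 is 22 bases long, and all of the 5p forms are 22 bases long. The 5p form begins 15 bases from the 5′ end in miR-44, 14 in miR-45, 24 in miR-61 and 20 in miR-247. The stretch between the arms is 23 bases in miR-44, 24 in miR-45, 14 in miR-61 and 18 in miR-247. Its median over the annotated hairpins is 18. As the 3p start and the 5p length are the same in all members, the 5p start and this stretch fix each other and are not separate differences.

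Of the 4 members, miR-44, miR-61 and miR-247 each had another miRNA hairpin close by on the same strand, and miR-45 had none within 10000 bp. Over the whole annotation, 31.0% of 261 miRNA hairpins have a same-strand neighbour within that distance. Each of these 3 members lay directly beside a hairpin of the miR-2 family, a separate seed family, so that 3 of the 4 miR-2 family hairpins were found next to a miR-44 family hairpin. miR-43 lies upstream of miR-44 with 15 bp between them, miR-250 downstream of miR-61 with 44 bp between them, and miR-797 downstream of miR-247 with 40 bp between them. miR-42 lies upstream of miR-43, 117 bp from miR-44. Hairpins this close are usually transcribed together, and whether these are was not measured here.

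Levels within these clusters differed, by far the most in the cluster of miR-44. The 3p arm of miR-44 was 1060-fold above miR-43-3p, at 570 mean normalized counts, and 479-fold above miR-42-3p, at 1262. Among the 33 pairs of listed hairpins within 1000 bp of each other on the same strand, these were the largest differences between the more abundant arms, and the third largest, between miR-73 and miR-74, was 36.0-fold. The median pair differed 3.18-fold. These pairs are not separate clusters, as every pairing within a cluster was counted, and many are pairings among the hairpins miR-35 to miR-40. Reads of the mature strand shared with miR-45 may enter both miR-44 values, and their part in them was not tested. miR-61-3p was 6.36-fold above miR-250-3p, at 19814 mean normalized counts, which ranked 11th of the 33 pairs. miR-247-3p was 2.57-fold above miR-797-5p, at 416, which ranked 21st. In miR-797 the arms were nearly level, with the 3p arm at 413 mean normalized counts.

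**Figure D4:**
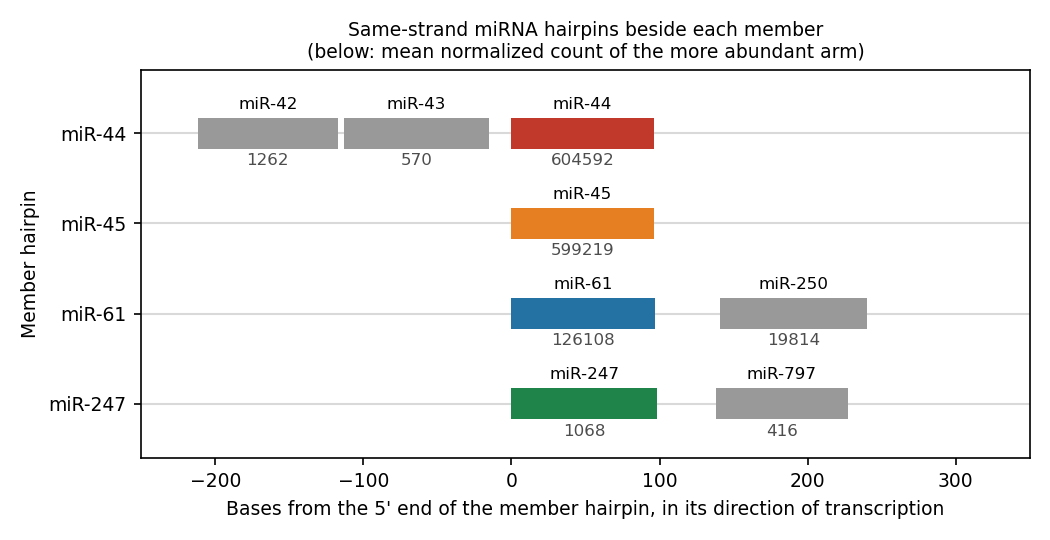
Same-strand miRNA hairpins beside each member, drawn to scale in bases from the 5′ end of the member in its direction of transcription; coloured boxes are members, grey boxes are neighbours, and the number under each box is the mean normalized count of its more abundant arm. miR-44 sits at 604592 beside miR-42 at 1262 and miR-43 at 570, and miR-45 has no same-strand neighbour in the range drawn.

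The spread inside the family was set against 3 other families of related miRNAs, chosen with the levels known and described without a test. The miR-44 family held 13.5% of the level of the table in 4 listed hairpins, against 28.2% for the miR-58 family (miR-58, miR-80, miR-81 and miR-82), 3.27% for the let-7 family (7 hairpins) and 0.484% for the miR-2 family (4 hairpins). The share of the miR-44 family was 7.91% with miR-45-3p left out, which left its place in this order as it was. That value applies if reads of the sequence shared with miR-44-3p were counted in full for both. The more abundant arms of the miR-44 family were up to 566-fold apart, compared with 4.01-fold in the miR-58 family, 91.6-fold in the let-7 family and 62.0-fold in the miR-2 family. In the miR-44 family 3 of the 4 hairpins had an arm over 100000 mean normalized counts, against 4 of 4 in the miR-58 family, 1 of 7 in the let-7 family and none in the miR-2 family. The strongest arm held 45.4% of the summed major arms in the miR-44 family and 41.0% in the miR-58 family. It held 58.3% in the let-7 family and 55.3% in the miR-2 family. The 45.4% takes miR-44-3p and miR-45-3p as separate arms, though they are annotated with the same sequence. Together they held 90.3% of the level of the miR-44 family, so its place by this measure depends on that choice.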

How the data were processed

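Small RNA libraries were made from Trizol-extracted RNA of 2 HS and 2 CTRL samples, grouped by their titles. Reads were mapped to *C. elegans* miRNAs and compared in DESeq2 by the authors. The aligner, the miRNA reference and the division of reads shared by several miRNAs are not given in the sources used here. The signal analysed is the authors' deposited mean of counts divided by size factors, over all 4 libraries. The table's 2 other columns hold the fold change and adjusted p of the authors' comparison of HS with CTRL and were not used. Since no library had values of its own, HS and CTRL were not compared, depth is unknown, and no interval or detection limit is given.

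Ranks, shares, ratios between arms and distances were computed in Python 3.11.15, with functions tested on simulated data. Hairpins were placed with the Ensembl release 115 annotation. The seeds were read from seed lists issued with the study. The miRNAs named were all members, the rows next to them in level, their same-strand neighbours within 10000 bp and, after their values were seen, the compared families. The members and lists were chosen with earlier results of these data known.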

Additional observations from a re-analysis of the deposited data

How the results depend on the processing

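No paired analysis was possible because each deposited level is a mean over both groups, and for the same reason no replicate could be left out. The share of the family in the summed level was 13.7% over the more abundant arm of each hairpin, 13.5% with a minimum of 100 and 13.5% with a minimum of 1000 mean normalized counts. Leaving out miR-45-3p gave a share of 7.91% and a sum of the 3p arms of 731769 instead of 1330988 mean normalized counts. These lower values apply if each read of the sequence annotated for both miR-44-3p and miR-45-3p was counted in full for both. The size of the family thus depends on how such reads were counted. Without miR-247-3p, a setting chosen after seeing the data, the 3p arms spanned 4.79-fold. A pseudocount of 10 moved the log2 ratios between arms by at most 0.024. With both arms at 100 or more, 35 of 60 hairpins had the higher arm on the 3p side, and within 1000 bp the members had the same 4 neighbours. Settings that group miRNAs by seed were not run. Depth is unknown, which limits most the rows near the lowest level of 51.5 mean normalized counts.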
